A study of Mus musculus with 14 samples.

Results

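The genes described here are 10 that osteoclasts use to sense their surroundings and to switch on their resorption programme. They are the surface receptors Oscar, Trem2, Siglec15 and Calcr, the adaptor chains Fcer1g and Tyrobp, the integrin subunit Itgb3, and the transcription factors Spi1, Mitf and Nfatc1. Members were chosen by name as the 10 rows with these symbols among the 55291 symbols of the deposited count table, and all 10 passed the filter on low counts. Tibia RNA from wild-type female C57Bl/6 mice was read in 14 libraries of 5 groups. Sham-operated mice (3 libraries, called sham) were set beside mice that had been ovariectomized (OVX). Of these, 3 libraries came from animals on PBS alone (OVX-PBS) and 3 from animals on hippuric acid (OVX-HA). Another 2 came from animals on the acid abbreviated 3-3-PPA in the labels (OVX-PPA), a hydroxyphenyl propionic acid, and 3 from animals on zoledronic acid (OVX-ZA). Ovariectomy removes the main source of oestrogen, and zoledronic acid is a bisphosphonate that binds bone mineral and acts on the osteoclasts that take it up. Treatment began 2 to 4 days after surgery and lasted 8 weeks, and neither the doses nor whether sham mice received PBS is given in the sources used here. No label ties a library to its own animal, so p-values measure only how far these samples spread, which may be technical.

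Osteoclasts form by fusion of monocyte and macrophage precursors under the cytokines RANKL and M-CSF. RANKL signalling is joined by a costimulatory signal from immunoreceptors such as OSCAR, TREM2 and SIGLEC15, which lack signalling tails of their own and rely on the adaptors FcRγ (encoded by Fcer1g) and DAP12 (encoded by Tyrobp), whose ITAM motifs recruit the kinase SYK. The calcium signal that follows activates NFATc1, the master transcription factor of the osteoclast, which acts with PU.1 (encoded by Spi1) and MITF on resorption genes and on Oscar, Calcr and Itgb3. PU.1, both adaptors and TREM2 are also general to macrophages and other myeloid cells, and integrin β3 is abundant on platelets and the megakaryocytes that make them.

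Libraries held 11.9 to 35.4 M estimated counts, with the lowest depth in OVX-ZA replicate 1, and 21761 genes were tested. Some libraries stand apart. In OVX-PBS replicate 1 and OVX-HA replicate 2 the summed level of 11 central nervous system markers was 154.6 and 154.7 CPM (counts scaled to library size with TMM factors), against 720 to 2015 in the other 12. In sham replicate 3 and OVX-ZA replicates 1 and 2 the sum of 6 lymph node markers was 104, 58.1 and 119 CPM, against 17.8 to 31.8 elsewhere. The bone identity of the samples was checked on 12 osteoblast and osteocyte markers, which summed to 1906 to 10465 CPM, and on 8 osteoclast markers (Ctsk, Acp5, Mmp9, Atp6v0d2, Tcirg1, Clcn7, Ocstamp and Dcstamp), which summed to 549 to 2437 CPM. Muscle markers summed to 38420 to 82198 CPM, so the tissue held muscle as well as bone.

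The promoter of Oscar is shown because Oscar is the only member whose 3 OVX-ZA libraries lay above all other 11 libraries, and those of Trem2 and Fcer1g are shown beside it as a receptor and an adaptor whose libraries overlapped. Each line gives the 250 bases before the RefSeq start site (GRCm38.p6, the mm10 assembly) on the gene's own strand, 5′ to 3′, with capitals for every match to a searched motif: Oscar at chr7:3616158-3616407 (- strand), Trem2 at chr17:48346151-48346400 (+ strand) and Fcer1g at chr1:171234350-171234599 (- strand).
Oscar: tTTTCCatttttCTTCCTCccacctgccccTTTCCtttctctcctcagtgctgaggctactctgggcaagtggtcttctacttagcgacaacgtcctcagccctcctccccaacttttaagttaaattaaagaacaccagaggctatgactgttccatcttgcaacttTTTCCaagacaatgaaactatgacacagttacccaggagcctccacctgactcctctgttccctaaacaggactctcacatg
Trem2: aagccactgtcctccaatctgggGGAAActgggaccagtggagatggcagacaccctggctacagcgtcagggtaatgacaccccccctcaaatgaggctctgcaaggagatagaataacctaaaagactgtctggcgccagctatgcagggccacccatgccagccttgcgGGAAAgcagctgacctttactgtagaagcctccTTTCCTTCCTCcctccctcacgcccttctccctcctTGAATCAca
Fcer1g: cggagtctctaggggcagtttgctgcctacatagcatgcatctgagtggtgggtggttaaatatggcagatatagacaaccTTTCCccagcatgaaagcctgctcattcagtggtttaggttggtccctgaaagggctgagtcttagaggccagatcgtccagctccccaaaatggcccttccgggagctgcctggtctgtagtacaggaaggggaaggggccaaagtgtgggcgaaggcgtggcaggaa
The motifs were a core of the PU.1 site (GAGGAAG), the E-box that MITF can bind (CACGTG), an AP-1 site (TGANTCA) and the NFAT core (GGAAA), each searched on both strands in the 300 bases from 250 before to 50 after the start. Oscar held 1 PU.1 match and 4 NFAT matches, the last of them after the start and not shown. Trem2 held 1 PU.1 match, 1 AP-1 match and 3 NFAT matches, and its PU.1 match shares a base with the NFAT match on the same strand. Fcer1g held 1 NFAT match and none of the other motifs. The promoters of Calcr and Mitf were searched too and are not shown. Each held 0 or 1 NFAT match and none of the other motifs. Of 32851 mouse promoters of this length, 13.6% held the PU.1 letters, 7.15% the E-box, 7.81% the AP-1 letters and 61.3% the NFAT core, so the NFAT letters alone are common. A match describes the letters and is not evidence of binding.

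Per kilobase of annotated exon, the adaptors were the most abundant members and the calcitonin receptor the least. Means over the 14 libraries were 54.2 ± 16.1 CPM per kb (SD) for Tyrobp, 43.5 ± 10.9 for Fcer1g, 18.2 ± 4.43 for Itgb3, 10.96 ± 3.29 for Spi1 and 8.41 ± 1.804 for Nfatc1. Oscar followed at 3.90 ± 2.19 CPM per kb, then Mitf at 2.57 ± 0.301, Trem2 at 0.973 ± 0.219, Siglec15 at 0.692 ± 0.386 and Calcr at 0.252 ± 0.0703. In this order the ranges over the 14 libraries were apart between Fcer1g (27.4 to 63.6) and Itgb3 (12.8 to 26.0) and between Mitf (2.13 to 3.19) and Trem2 (0.601 to 1.59), and the ranges of all other neighbours overlapped. Within a library the order was steadier: each gene lay above the next in all 14 libraries except for Spi1 over Nfatc1 (13 of 14), Oscar over Mitf (11 of 14) and Trem2 over Siglec15 (12 of 14). Oscar, which reached at most 10.4 CPM per kb, Trem2 and Siglec15, the receptors that need an adaptor, lay below both adaptors in every library.

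**Figure D1:**
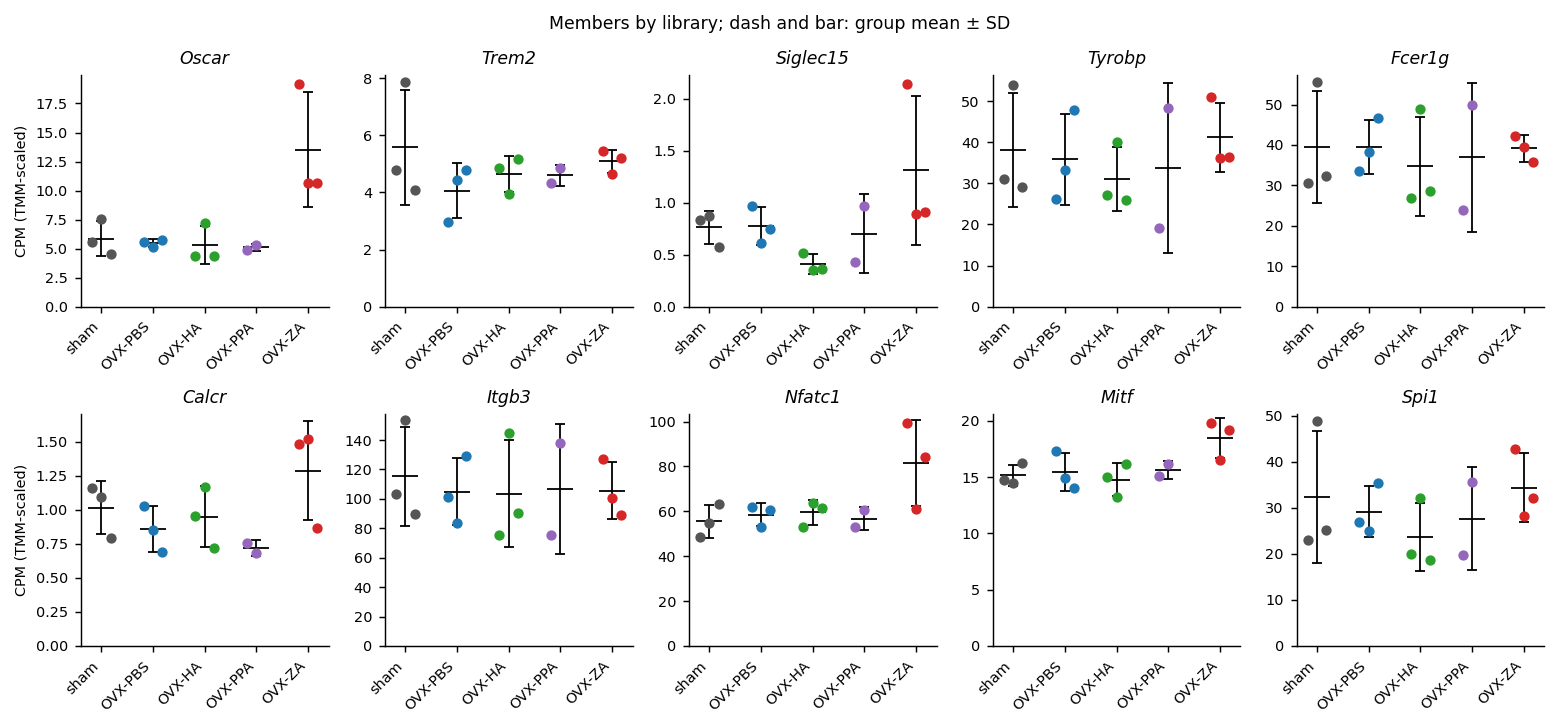
TMM-scaled CPM of each of the 10 members (vertical axes, each from 0) in the 5 groups (horizontal axes), with a point per library and the group mean ± SD. The 3 OVX-ZA points of Oscar (10.7 to 19.2 CPM) sit above all others (4.33 to 7.52 CPM), whereas points of all groups overlap for Trem2, Tyrobp, Fcer1g, Itgb3 and Spi1.

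The members differed in which cell markers they ran with. Oscar was higher in OVX-ZA than in every other group and followed the osteoclast markers from library to library. Tyrobp and Fcer1g followed the summed monocyte and macrophage markers and Itgb3 followed megakaryocyte markers. For these 3 genes and Spi1 the OVX-ZA libraries lay among the others. The largest of the monocyte and macrophage markers was Lyz2, at 291 to 749 CPM. No ratio of the adaptors to neutrophil markers was computed, so macrophage content is not told apart from that of other myeloid cells. Of the osteoclast markers, Mmp9 read 157 to 353 CPM outside OVX-ZA. It was highest there in sham replicate 2, OVX-PBS replicate 3 and OVX-PPA replicate 2. These libraries also had the highest neutrophil sums (6061, 5154 and 5698 CPM). In OVX-ZA replicates 1 to 3 Mmp9 read 899, 462 and 546 CPM, with neutrophil sums of 3254, 3271 and 2609 CPM. The part of neutrophils in Mmp9, and so in the osteoclast sum, was not tested. Markers of another cell type were low in OVX-ZA: the 12 osteoblast and osteocyte markers summed to 2960, 1906 and 2806 CPM in OVX-ZA and to 4445 to 10465 CPM in the other 11 libraries, without overlap. Against the mean of the other 3 ovariectomized groups these 12 had a median log2 difference of -0.64 beside -0.024 over all genes. Of them 9 were lower and 3 higher, and 0 passed edgeR, where 0.0230% of all genes did. Among the lower ones 6 had an unadjusted p under 0.05, and the share of all genes in that direction is not given here. DESeq2 called 4, all lower: the collagen I genes Col1a1 and Col1a2, and Bglap and Bglap2, near-identical osteocalcin copies between which reads may be split. The part of this shift in the level of Oscar and the other members was not tested. Nfatc1 and Mitf were moderately higher in OVX-ZA, with fitted folds of 1.39 and 1.20 over OVX-PBS. In bulk RNA, more cells of a type and more RNA per cell cannot be told apart.

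None of the 10 members passed the test in any of the 11 comparisons (edgeR quasi-likelihood test, Benjamini-Hochberg adjustment over the 21761 genes, threshold 0.05). Over all genes the share called was 0.0230% in OVX-ZA against the mean of the other 3 ovariectomized groups, 0.00460% in OVX-ZA against OVX-HA and 0% in the other 9 comparisons. In OVX-ZA against OVX-PBS 0 members were called, where 0% of all genes were called, and 2 members (Oscar and Nfatc1) had an unadjusted p under 0.05, where 3.36% of all genes did. A DESeq2 Wald test called 1 member there, Oscar, among 32 genes. In OVX-ZA against the mean of the other 3 ovariectomized groups 0 members were called by edgeR, where 0.0230% of genes were, and 5 (Oscar, Siglec15, Nfatc1, Mitf and Calcr) had an unadjusted p under 0.05, all higher, where 1.76% of genes did in that direction. DESeq2 called Oscar there among 63 genes. The median log2 difference of the 10 members was 0.29 against OVX-PBS, beside -0.037 over all genes tested, and 0.33 against the mean of the 3 groups, beside -0.024 over all genes. These comparisons share the OVX-ZA libraries and are not independent of each other.

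**Figure D2:**
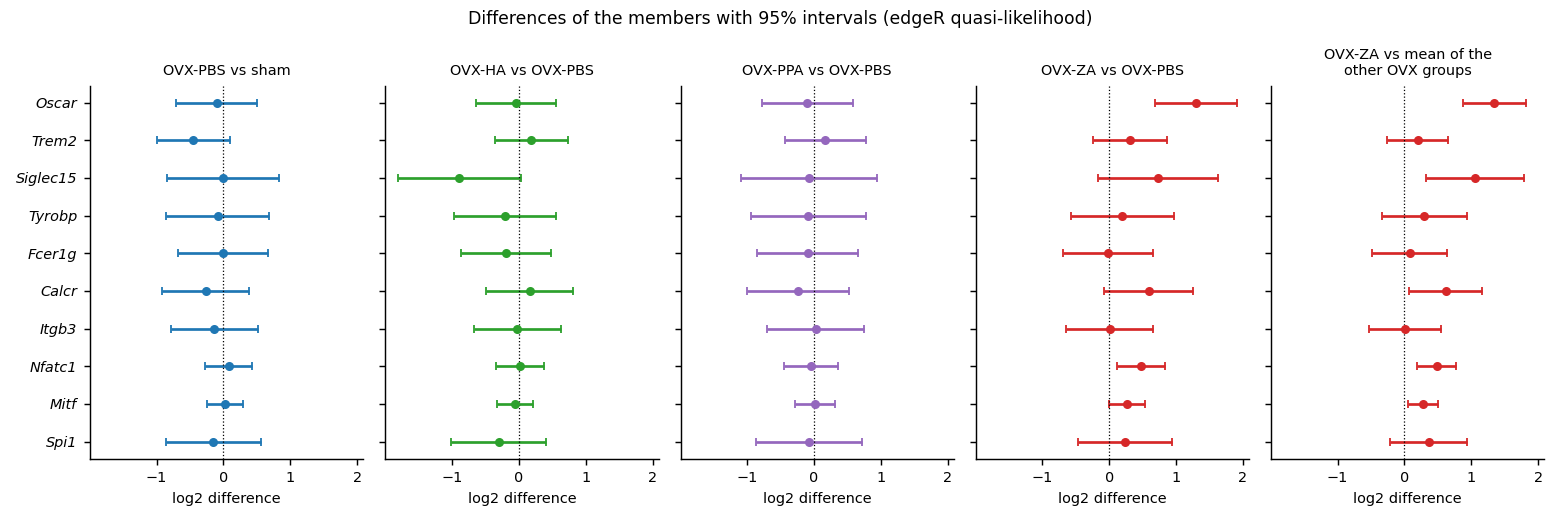
Log2 differences (horizontal axis) of the 10 members with 95% intervals from the edgeR fit, in 5 comparisons. Intervals in the 3 comparisons without OVX-ZA include 0 for all members, and in the comparison of OVX-ZA with the mean of the other ovariectomized groups Oscar lies farthest from 0, at 1.34.

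Oscar (ENSMUSG00000054594, mm10 chromosome 7, 3609813-3616157, - strand) encodes a collagen-binding receptor of osteoclasts that pairs with FcRγ. It read 5.55, 7.52 and 4.54 CPM in sham replicates 1 to 3 and 5.55, 5.12 and 5.76 CPM in OVX-PBS. It read 4.38, 7.23 and 4.33 CPM in OVX-HA, 4.88 and 5.32 CPM in OVX-PPA, and 19.2, 10.7 and 10.7 CPM in OVX-ZA. All 3 OVX-ZA libraries were above all 11 others, and the sham, OVX-PBS, OVX-HA and OVX-PPA libraries overlapped. Group means were 13.5 ± 4.93 CPM in OVX-ZA (SD, n = 3) and 5.47 ± 0.327 CPM in OVX-PBS (n = 3). The log2 difference between them was 1.30 ± 0.278 (SE, 95% interval 0.69 to 1.90), with an adjusted p of 0.514 by edgeR. Against the mean of the other 3 ovariectomized groups it was 1.34 ± 0.218 (0.87 to 1.82, adjusted p = 0.0786 by edgeR), which ranked Oscar 13th of 21761 genes by p. A complete separation upward was seen for 1 member against OVX-PBS, Oscar, where 4.21% of all genes showed one, and for 1 against the 3 groups together, where 0.721% did.

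Whether Oscar was called depended on the tool and on single libraries. DESeq2 called it in all 5 comparisons that involve OVX-ZA, with adjusted p of 0.00709 against OVX-PBS, 0.0406 against sham, 0.00401 against OVX-HA, 0.0348 against OVX-PPA and 2.84e-05 against the mean of the 3 groups. With edgeR it was called against the mean of the 3 groups with no filter on low counts (1.38, adjusted p = 0.0221), without OVX-HA replicate 2 (1.48 ± 0.198, adjusted p = 0.0171), and without both libraries that lack nervous system transcripts (1.46 ± 0.204, adjusted p = 0.0255). Without OVX-ZA replicate 1, which holds the highest Oscar level and has the lowest depth, the difference was 1.01 ± 0.210 with an adjusted p of 0.730 by edgeR. The difference from OVX-PBS lay between 0.96 and 1.44 when each library was left out in turn, so its direction did not rest on any of them.

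Across the 14 libraries Oscar followed the osteoclast markers closely. Its log2 level had an SD of 0.614, and the log2 ratio of Oscar to the sum of the 8 osteoclast markers had an SD of 0.133. Per 1000 CPM of that sum Oscar read 7.89, 8.02 and 6.76 CPM in OVX-ZA and 5.72 to 7.88 CPM in the other 11 libraries, so the 2 ranges overlapped. The genes with the steadiest ratio to Oscar, of 13884 candidates, were Ctsk (cathepsin K, the collagen-degrading protease of osteoclasts; SD 0.153), Atp6v0d2 (a subunit of the osteoclast proton pump; 0.159) and Slc37a2 (a sugar phosphate transporter; 0.188), and they kept these 3 ranks in the 12 libraries that hold nervous system transcripts. In the 11 libraries outside OVX-ZA the SD was 0.261 for Oscar and 0.116 for the ratio. This likeness is a description over 14 libraries that share 5 groups.

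**Figure D3:**
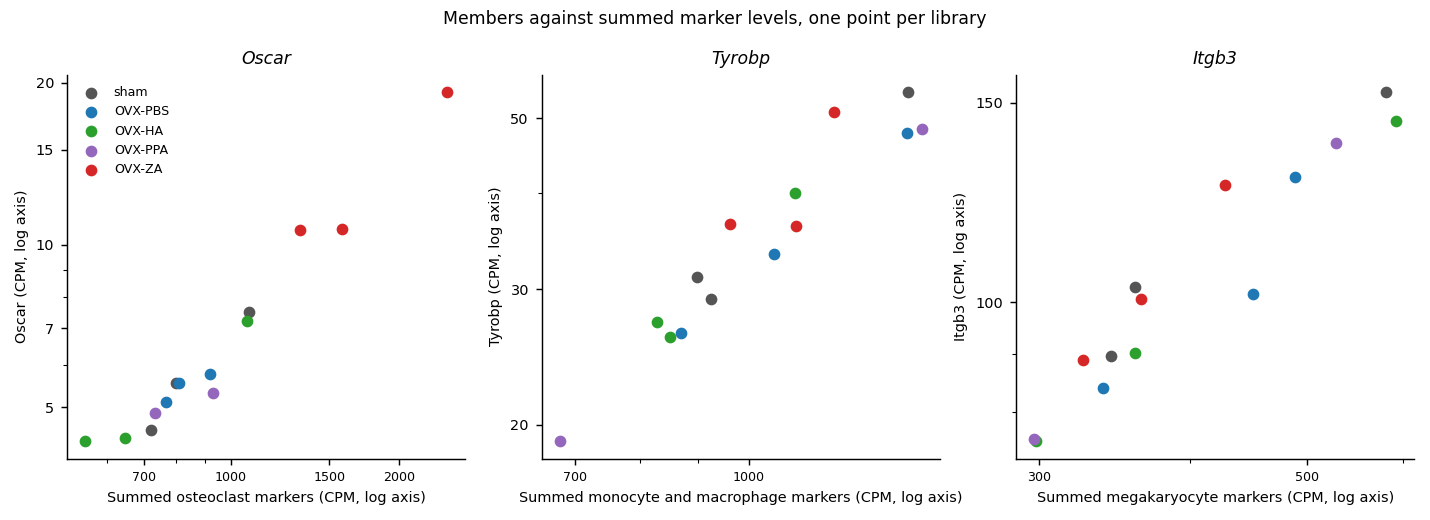
CPM of Oscar, Tyrobp and Itgb3 (vertical log axes) against the summed CPM of osteoclast, monocyte and macrophage, and megakaryocyte markers (horizontal log axes), with a point per library coloured by group. The OVX-ZA libraries extend the Oscar panel to 2437 CPM of osteoclast markers, and lie within the span of the other libraries in the Tyrobp and Itgb3 panels.

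The FcRγ chain, the partner of OSCAR, did not share this pattern. Fcer1g (ENSMUSG00000058715, chromosome 1, 171229572-171234365, - strand) read 30.6, 55.6 and 32.4 CPM in sham, 33.5, 38.2 and 46.8 CPM in OVX-PBS and 26.8, 48.8 and 28.5 CPM in OVX-HA. It read 23.9 and 49.9 CPM in OVX-PPA and 42.3, 39.4 and 35.7 CPM in OVX-ZA, inside the range of the other libraries. The log2 difference of OVX-ZA from OVX-PBS was -0.016 ± 0.310 (95% interval -0.69 to 0.66). The steadiest ratios to Fcer1g were those of Ncf4 (a subunit of the phagocyte oxidase; SD 0.0959 beside 0.365 for Fcer1g itself) and the C-type lectin receptors Clec4a3 (0.104) and Clec4a2 (0.107). Its ratio to the summed monocyte and macrophage markers had an SD of 0.117 and its ratio to the osteoclast sum 0.491. Over the 11 libraries outside OVX-ZA these SDs were 0.133 and 0.221, beside 0.409 for Fcer1g itself.

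Tyrobp (ENSMUSG00000030579, chromosome 7, 30413760-30417585, + strand), which encodes the adaptor DAP12, varied with it. Tyrobp read 31.1, 54.0 and 29.1 CPM in sham, 26.3, 33.3 and 47.8 CPM in OVX-PBS and 27.2, 39.9 and 26.0 CPM in OVX-HA. It read 19.0 and 48.3 CPM in OVX-PPA and 51.0, 36.2 and 36.4 CPM in OVX-ZA. Spread within groups exceeded any difference between them: the lowest library was OVX-PPA replicate 1 and the highest sham replicate 2, for both adaptors. Tyrobp differed between OVX-ZA and OVX-PBS by 0.20 ± 0.353 (log2, -0.57 to 0.96). Its steadiest companions were Selplg, a selectin ligand of leukocytes (SD of the ratio 0.128), Mpeg1, the macrophage pore protein perforin 2 (0.129), and Itgb2, the leukocyte integrin β2 (0.135). Mpeg1 is itself in the macrophage marker list, to whose sum the Tyrobp ratio had an SD of 0.161. To the osteoclast sum it had an SD of 0.442. Over the 11 libraries outside OVX-ZA these SDs were 0.133 and 0.305, beside 0.462 for Tyrobp itself.

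Macrophage markers give the context for these adaptors. The 18 markers summed to 1084 ± 115 CPM in OVX-ZA (SD, n = 3) and 1101 ± 260 CPM in OVX-PBS (n = 3), while the 8 osteoclast markers summed to 1783 ± 580 and 831 ± 79.2 CPM. Sham replicate 2, the highest library for Tyrobp, Fcer1g, Spi1, Itgb3 and Trem2, also had the highest neutrophil sum (6061 CPM, against 2157 to 5698 elsewhere) and a macrophage sum of 1386 CPM. OVX-PPA replicate 1, the lowest for both adaptors, had the lowest macrophage sum, 678 CPM, and the lowest neutrophil sum, 2157 CPM. The part that marrow myeloid cells have in the adaptor levels was not tested. Per 1000 CPM of osteoclast markers, Fcer1g was 17.4 to 29.6 CPM in OVX-ZA and 32.7 to 53.7 CPM elsewhere, and Tyrobp was 20.9 to 27.2 CPM in OVX-ZA and 26.0 to 52.0 CPM elsewhere.

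Trem2 (ENSMUSG00000023992, chromosome 17, 48346401-48354147, + strand) encodes a lipid-binding receptor that signals through DAP12 and is known from osteoclasts, tissue macrophages and microglia. It read 4.77, 7.89 and 4.07 CPM in sham, 2.97, 4.45 and 4.77 CPM in OVX-PBS and 4.84, 3.95 and 5.18 CPM in OVX-HA. It read 4.34 and 4.86 CPM in OVX-PPA and 5.44, 4.65 and 5.20 CPM in OVX-ZA. All groups overlapped. The lowest levels were in OVX-PBS replicate 1 and OVX-HA replicate 2, the 2 libraries that lack nervous system transcripts. In them Sall1, a transcription factor of microglia, read 0.457 and 0.146 CPM against 4.04 to 11.6 CPM in the other 12, whereas the sum of all 8 microglia markers, 150.7 and 171.5 CPM, lay inside the range of the others (142.6 to 186.0). The part of microglial RNA in the Trem2 level was not tested.

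The largest Trem2 difference was between OVX-PBS and sham, at -0.45 ± 0.249 (log2, 95% interval -0.99 to 0.093, adjusted p = 0.913 by edgeR). It was -0.25 ± 0.236 without the 2 libraries that lack nervous system transcripts and -0.12 without sham replicate 2. Against OVX-PBS, OVX-ZA was 0.31 ± 0.253 higher (-0.24 to 0.86). The genes with the steadiest ratio to Trem2 were the lysosomal α-galactosidase Gla (SD 0.123 beside 0.300 for Trem2), Efhd2, a calcium-binding protein (0.131), and Pld3, a lysosomal nuclease (0.134). Without the 2 libraries that lack nervous system transcripts, where Trem2 was lowest, these genes ranked 6, 4 and 17. Unlike Oscar, its ratio to the osteoclast sum varied more than Trem2 itself, with an SD of 0.558.

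Siglec15 (ENSMUSG00000091055, chromosome 18, 78043614-78057395, - strand) encodes a sialic acid receptor of osteoclasts that also signals through DAP12. Its depth was low, with 8 to 31 counts per library. It read 0.839, 0.873 and 0.577 CPM in sham, 0.972, 0.609 and 0.746 CPM in OVX-PBS and 0.520, 0.351 and 0.361 CPM in OVX-HA. It read 0.434 and 0.973 CPM in OVX-PPA and 2.14, 0.894 and 0.908 CPM in OVX-ZA. The 3 OVX-HA libraries were below all OVX-PBS and all sham libraries, and OVX-ZA replicate 1 stood above every other library. The other 2 OVX-ZA libraries were just above the highest sham library (0.873 CPM) and overlapped OVX-PBS and OVX-PPA. Against sham, 3 members (Oscar, Mitf and Siglec15) had all OVX-ZA libraries above all sham libraries, where 3.46% of all genes did.

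The difference of Siglec15 between OVX-HA and OVX-PBS was -0.88 ± 0.424 (log2, 95% interval -1.81 to 0.039, adjusted p = 1.00 by edgeR), and it was -0.64 without the 2 libraries that lack nervous system transcripts. In that comparison 1 of 10 members, Siglec15, separated downward, where 1.83% of all genes did, and against sham it also separated, where 1.95% did. OVX-ZA was 1.62 ± 0.426 above OVX-HA (adjusted p = 0.980 by edgeR) and 0.73 ± 0.413 above OVX-PBS (-0.17 to 1.63), which became 0.23 without OVX-ZA replicate 1. The difference from the mean of the 3 groups, 1.05 ± 0.338, was 0.56 ± 0.329 without OVX-ZA replicate 1. Its nearest companions, Fut4 (SD of the ratio 0.367), Msr1 (0.383) and Pira2 (0.384), varied widely against it, as counts this low allow, and ranked 8, 7 and 32 without the 2 libraries that lack nervous system transcripts.

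Calcr (ENSMUSG00000023964, chromosome 6, 3685680-3764714, - strand), the calcitonin receptor and a marker of mature osteoclasts, had 14 to 40 counts per library. It read 1.16, 1.10 and 0.793 CPM in sham, 1.03, 0.853 and 0.693 CPM in OVX-PBS and 0.958, 1.17 and 0.721 CPM in OVX-HA. It read 0.760 and 0.681 CPM in OVX-PPA and 1.48, 1.52 and 0.866 CPM in OVX-ZA. OVX-ZA replicates 1 and 2 were the highest of the 14 libraries, and replicate 3 lay among the rest. The log2 difference was 0.59 ± 0.304 against OVX-PBS (-0.073 to 1.25, adjusted p = 0.899 by edgeR) and 0.61 ± 0.250 against the mean of the 3 groups. OVX-ZA replicates 1 and 2 also carry lymph node transcripts. Without the 3 libraries that do, only OVX-ZA replicate 3, the lowest of its group, remained in OVX-ZA, and the latter difference was 0.056. That fit cannot tell lymph node tissue apart from the low level of that single library. The part of lymph node tissue was not tested. Calcr is also known from muscle satellite cells, whose 6 markers summed to 37.3 ± 4.51 CPM in OVX-ZA and 36.9 ± 2.95 CPM in OVX-PBS (SD, n = 3 each). Its steadiest companions were Stra6, a retinol transporter (SD 0.181 beside 0.358 for Calcr), Akr1c13 (0.186) and Slc45a3 (0.236).

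Itgb3 (ENSMUSG00000020689, chromosome 11, 104608000-104670476, + strand) encodes the β3 subunit that pairs with αv on osteoclasts and with αIIb on platelets. It read 103.2, 153.3 and 89.6 CPM in sham, 101.6, 83.9 and 129.0 CPM in OVX-PBS and 75.4, 144.5 and 90.2 CPM in OVX-HA. It read 75.7 and 138.1 CPM in OVX-PPA and 126.9, 100.6 and 89.0 CPM in OVX-ZA. The groups overlapped fully, and OVX-ZA differed from OVX-PBS by 0.0077 ± 0.299 (log2, -0.64 to 0.66). The steadiest companions of Itgb3 were Plek, a platelet kinase substrate (SD 0.111 beside 0.345 for Itgb3), F5, coagulation factor V (0.117), and Gp5, a platelet surface glycoprotein (0.122). Its ratio to the sum of 10 megakaryocyte markers had an SD of 0.1005, to the macrophage sum 0.189 and to the osteoclast sum 0.511. Over the 11 libraries outside OVX-ZA these SDs were 0.0859, 0.202 and 0.196, beside 0.376 for Itgb3 itself. The megakaryocyte sum was used after the companions of Itgb3 had been seen, and it was 373 ± 51.1 CPM in OVX-ZA and 427 ± 78.0 CPM in OVX-PBS (SD, n = 3 each).

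Against osteoclast markers, every member except Oscar had a lower mean ratio in OVX-ZA than in the other 11 libraries. Trem2 read 2.23 to 3.49 CPM per 1000 CPM of these markers in OVX-ZA and 3.68 to 9.43 CPM elsewhere. Itgb3 also read lower in OVX-ZA, where the marker sum was higher and its own level was near that of OVX-PBS. Per 1000 CPM of osteoclast markers it read 52.1, 75.6 and 56.3 CPM in OVX-ZA and 103 to 164 CPM in the other 11 libraries, with no overlap. Per 1000 CPM of megakaryocyte markers it read 297, 276 and 273 CPM in OVX-ZA and 225 to 286 CPM elsewhere. Its osteoclast partner Itgav, the αv subunit, was 0.55 log2 above OVX-PBS in OVX-ZA and is described with the integrin list below.

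**Figure D4:**
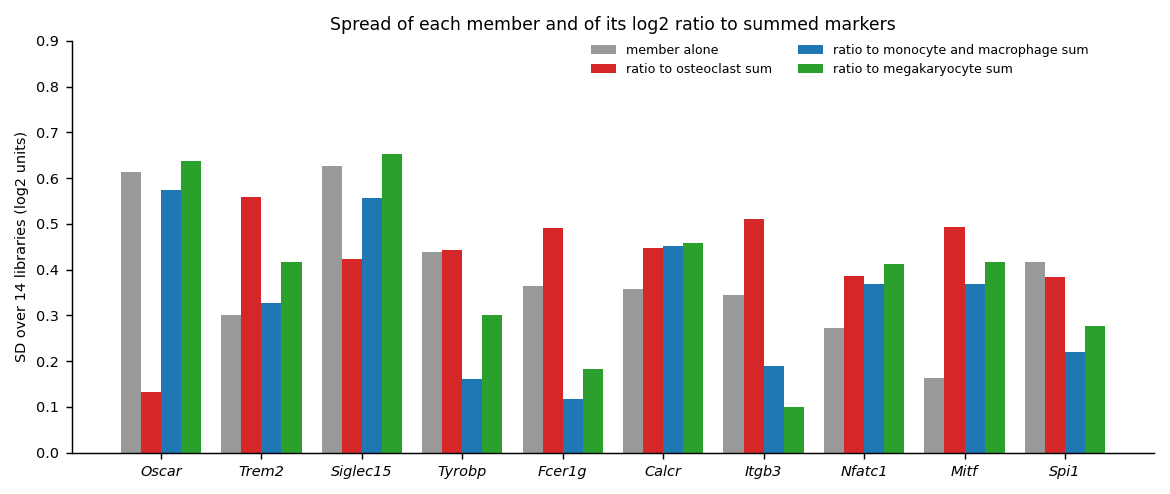
SD over the 14 libraries, in log2 units, of each member's level (grey bars) and of its ratio to summed osteoclast (red), monocyte and macrophage (blue) and megakaryocyte (green) markers. The ratio to osteoclast markers varies least for Oscar (0.133), the ratio to macrophage markers for Fcer1g (0.117) and the ratio to megakaryocyte markers for Itgb3 (0.1005).

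Spi1 (ENSMUSG00000002111, chromosome 2, 91082390-91115756, + strand) encodes PU.1, the factor that commits precursors to the myeloid lineage. It read 23.0, 48.8 and 25.2 CPM in sham, 26.9, 25.0 and 35.4 CPM in OVX-PBS and 20.1, 32.2 and 18.7 CPM in OVX-HA. It read 19.8 and 35.5 CPM in OVX-PPA and 42.7, 28.3 and 32.1 CPM in OVX-ZA. The OVX-ZA libraries lay inside the range of the others, and the difference from OVX-PBS was 0.24 ± 0.325 (log2, -0.47 to 0.94). The steadiest companions were the inhibitory receptor Pirb (SD 0.120 beside 0.418 for Spi1), Lgals3, the macrophage galectin (0.130), and Rab32 (0.159). Its ratio to macrophage markers had an SD of 0.220 and to osteoclast markers 0.384. In the 11 libraries outside OVX-ZA the ratios to macrophage, megakaryocyte and osteoclast markers varied almost alike, with SDs of 0.196, 0.202 and 0.211. Per 1000 CPM of osteoclast markers Spi1 was 17.5 to 21.3 CPM in OVX-ZA and 27.1 to 45.3 CPM elsewhere, with no overlap.

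Mitf (ENSMUSG00000035158, chromosome 6, 97807052-98021349, + strand), which encodes a factor shared by osteoclasts, melanocytes and mast cells, was the steadiest member, with an SD of 0.163 over the 14 libraries. It read 14.7, 14.5 and 16.2 CPM in sham, 17.3, 15.0 and 14.02 CPM in OVX-PBS and 15.0, 13.2 and 16.1 CPM in OVX-HA. It read 15.1 and 16.2 CPM in OVX-PPA and 19.8, 16.5 and 19.2 CPM in OVX-ZA. OVX-ZA replicates 1 and 3 were the highest libraries, and replicate 2 overlapped OVX-PBS. The log2 difference was 0.26 ± 0.123 against OVX-PBS (-0.0061 to 0.53) and 0.28 ± 0.102 against the mean of the 3 groups (adjusted p = 1.00 by edgeR). Melanocyte markers were near 0, with 0.784 to 2.08 CPM for the sum of 6 genes in every library, and the 10 mast cell and basophil markers summed to 75.3 ± 6.77 CPM in OVX-ZA and 87.7 ± 7.42 CPM in OVX-PBS (SD, n = 3 each). The steadiest companions of Mitf were Abcc1, a drug efflux pump (SD 0.0783), Mtmr1, a lipid phosphatase (0.0820), and Capza2, an actin capping subunit (0.0833).

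Nfatc1 (ENSMUSG00000033016, chromosome 18, 80606205-80713071, - strand) read 48.7, 54.8 and 63.1 CPM in sham, 62.0, 52.9 and 60.8 CPM in OVX-PBS and 53.1, 63.8 and 61.7 CPM in OVX-HA. It read 53.1 and 60.4 CPM in OVX-PPA and 99.3, 61.1 and 84.4 CPM in OVX-ZA. OVX-ZA replicates 1 and 3 stood above all other libraries, and replicate 2 lay among them. Means were 81.6 ± 19.3 CPM in OVX-ZA and 58.6 ± 4.93 CPM in OVX-PBS (SD, n = 3 each), a log2 difference of 0.48 ± 0.164 (95% interval 0.12 to 0.83, adjusted p = 0.899 by edgeR). Against the mean of the 3 groups it was 0.48 ± 0.134 (adjusted p = 0.804 by edgeR), 0.32 ± 0.139 without OVX-ZA replicate 1 and 0.66 ± 0.119 without replicate 2. Its steadiest companions were Myof, a membrane repair protein (SD 0.123 beside 0.273 for Nfatc1), Mmp14, a membrane-bound collagenase that osteoclasts and stromal cells make (0.135), and Serpinb8 (0.139).

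Nfatc1 was higher in OVX-ZA but read lower against the osteoclast markers, whose sum rose more. That sum was 1783 ± 580 CPM in OVX-ZA and 831 ± 79.2 CPM in OVX-PBS (SD, n = 3 each). A gene that rises less than the sum must read lower against it. Nfatc1 read 40.8, 45.9 and 53.4 CPM per 1000 CPM of osteoclast markers in OVX-ZA and 50.9 to 112 CPM in the other 11 libraries, where sham replicate 2 held the lowest value and was the 1 library below OVX-ZA replicate 3. Oscar, a known target of NFATc1, had a larger fold in OVX-ZA (2.46 over OVX-PBS) than Nfatc1 itself (1.39). The difference between the 2 folds was not tested.

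Downstream of these factors, 22 target genes and osteoclast markers had a higher median than the members. In OVX-ZA against the mean of the 3 groups 2 of 22 passed edgeR, where 0.0230% of all genes did: Ocstamp rose by 2.45 ± 0.231 (adjusted p = 0.00388) and Dcstamp by 2.40 ± 0.257 (adjusted p = 0.00761), both of which encode membrane proteins of osteoclast fusion. In all, 14 of 22 had an unadjusted p under 0.05 and all 14 were higher, where 1.76% of all genes did in that direction. The list median was 0.45 beside -0.024 over all genes. Ctsk was 1.45 ± 0.226 higher, Mmp9 1.49 ± 0.256, Jdp2 (an AP-1 family factor of osteoclasts) 0.90 ± 0.148 and Acp5 (tartrate-resistant acid phosphatase) 0.71 ± 0.230, none of them past the threshold. Car2, carbonic anhydrase 2, was the only gene of the list below 0, at -0.61 ± 0.332. Against OVX-PBS 0 of 22 passed edgeR, where 0% of all genes did, and the median was 0.54. There 13 had an unadjusted p under 0.05, all higher, where 3.36% of all genes did in either direction. The smallest p there belonged to Ocstamp (2.40), Dcstamp (2.17) and Jdp2 (0.91). DESeq2 called 5 of the 22 against OVX-PBS (Ctsk, Dcstamp, Jdp2, Mmp9 and Ocstamp) and 8 against the mean of the 3 groups, all higher. The totals that DESeq2 called over all genes are given with the members above. In OVX-PBS against sham the median was -0.050 and 6 of 22 were higher.

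The signalling partners of the receptors were divided in direction. Of 33 genes of the ITAM and RANK pathways 0 passed edgeR in OVX-ZA against the mean of the 3 groups, 16 were higher and 17 lower, and the median was -0.0076. The 2 with an unadjusted p under 0.05 were Tnfrsf11a, which encodes the RANKL receptor RANK (0.82 ± 0.150, adjusted p = 0.130 by edgeR), and Csf1r, which encodes the M-CSF receptor (0.46 ± 0.135, adjusted p = 0.964 by edgeR). Both were higher, where 1.76% of all genes had such a p in that direction. Tnfrsf11a read 14.8, 9.7 and 10.3 CPM in OVX-ZA and 5.7 to 8.6 CPM in the other 11 libraries, without overlap. The kinase Syk, to which both adaptors couple, was at -0.29 ± 0.282, and the adaptor gene Blnk was the lowest of the list at -0.48 ± 0.270. In the same comparison 9 B cell markers had a median of -0.43, with 2 higher and 7 lower. The part of B cells in the Blnk level was not tested. Against OVX-PBS 0 of 33 passed edgeR and 2 had an unadjusted p under 0.05, where 3.36% of all genes did in either direction. These were Tnfrsf11a at 0.86 and Csf1r at 0.45, and Blnk was at -0.59. DESeq2 called 1 of the 33 in either comparison, Tnfrsf11a.

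Among 18 partners of integrin β3 at the sealing zone, 0 passed edgeR in OVX-ZA against the mean of the 3 groups, 10 were higher and the median was 0.018. An unadjusted p under 0.05 was seen for 2, Itgav and Src, both higher, where 1.76% of all genes had one in that direction. DESeq2 called 1, Itgav. Itgav was 0.47 ± 0.101 higher (adjusted p = 0.267 by edgeR), with 65.2, 61.5 and 71.1 CPM in OVX-ZA and 39.3 to 52.6 CPM elsewhere, without overlap. Src, the kinase needed for the ruffled border, was 0.31 ± 0.128 higher, and Pip5k1c, a lipid kinase that binds talin, 0.14 ± 0.106 higher. Against OVX-PBS the 3 were at 0.55, 0.42 and 0.25, again with 0 of 18 past edgeR and 1, Itgav, called by DESeq2. Of the 18, 2 had an unadjusted p under 0.05 there, where 3.36% of all genes did in either direction. The integrin partner αv separated between OVX-ZA and all other libraries while the β3 subunit did not.

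Of 22 other transcription factors listed for osteoclasts 21 were tested and 0 passed edgeR. In the comparison with the mean of the 3 groups 12 were higher and the median was 0.051. Only 1 (Prdm1, higher) had an unadjusted p under 0.05, where 1.76% of all genes did in that direction, and it was called by DESeq2. Prdm1, which encodes BLIMP1, a repressor of anti-osteoclastogenic genes, was 1.04 ± 0.208 higher (adjusted p = 0.190 by edgeR) and read 12.1, 8.6 and 6.9 CPM in OVX-ZA against 3.4 to 5.7 CPM elsewhere. Fosl2 was at 0.31 ± 0.149 and Jund at -0.18 ± 0.0918. Against OVX-PBS, Jun was at -0.60 and Jund at -0.35, both with an unadjusted p under 0.05, where 3.36% of all genes had one in either direction. There Prdm1 was at 0.99, and DESeq2 called 0. OVX-PBS replicate 1, which lacks nervous system transcripts, was the highest library for Jun and Jund. In it Jun read 153.5 CPM against 64.0 to 93.2 CPM in all others, and Jund 125.7 CPM against 82.1 to 113.0 CPM. Of 9 factors that restrain osteoclast formation 0 passed edgeR and 0 DESeq2, 4 were higher and 5 lower, with a median of -0.17 and no unadjusted p under 0.05. The 3 of these with the smallest p were Id3 (-0.24 ± 0.158), Eomes (0.58 ± 0.400) and Id1 (-0.21 ± 0.165). Against OVX-PBS 0 passed either tool and 1 (Id1) had an unadjusted p under 0.05, where 3.36% of all genes did in either direction. Id1 was at -0.49, Id3 at -0.35 and Bcl6 at -0.30.

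**Figure D5:**
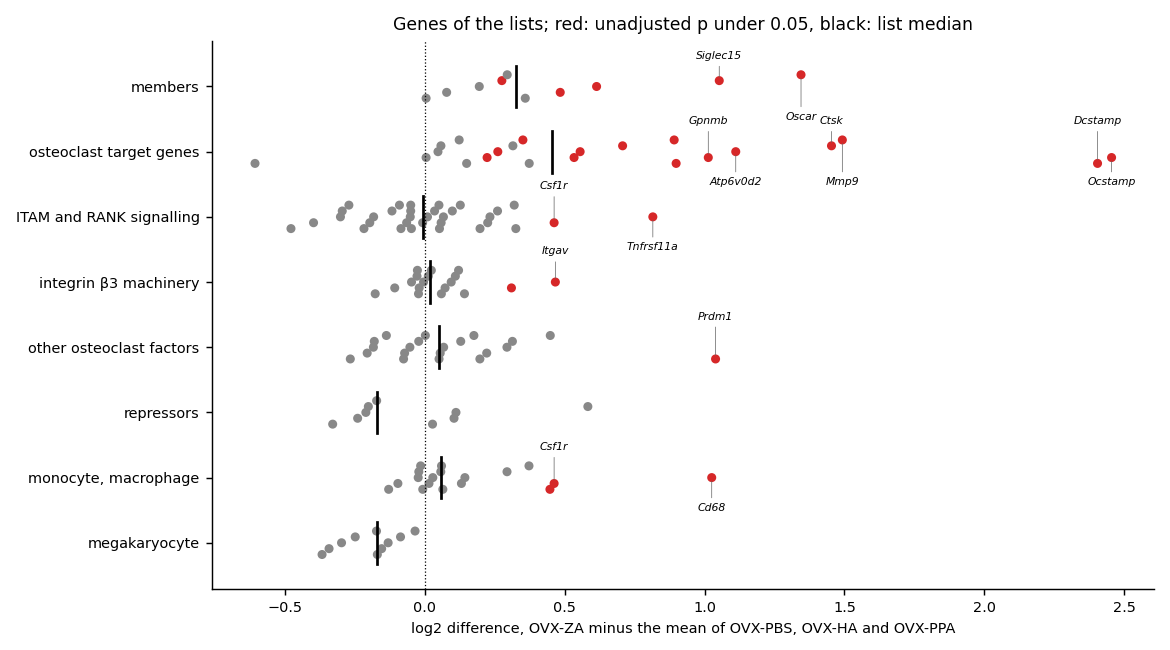
Log2 differences between OVX-ZA and the mean of OVX-PBS, OVX-HA and OVX-PPA (horizontal axis) for the genes of 8 lists (rows), with red points for an unadjusted p under 0.05 and black bars for list medians. The members (median 0.33) and the osteoclast target genes (median 0.45) lie to the right, while the ITAM and RANK list (-0.0076) is centred near 0 apart from Tnfrsf11a and Csf1r.

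No member passed the test for ovariectomy or for either acid. In OVX-PBS against sham 0 of 10 members were called by edgeR and 0 by DESeq2, where 0% of all genes were called by edgeR, and 0 members had an unadjusted p under 0.05, where 2.73% of genes did. The member median was -0.095, with 8 of 10 lower, beside 0.0079 over all genes. In OVX-HA against OVX-PBS 0 members were called by either tool or had an unadjusted p under 0.05, where 0% and 1.47% of genes did so by edgeR, and the median was -0.051. In OVX-PPA against OVX-PBS, with 2 OVX-PPA libraries, the same counts were 0, where 0% and 1.87% of genes did so, and the median was -0.075. The 95% intervals set how large a difference these groups could hide: that of Oscar was -0.70 to 0.50 for OVX-PBS against sham, -0.64 to 0.56 for OVX-HA and -0.78 to 0.58 for OVX-PPA against OVX-PBS. That of Nfatc1 was narrower, at -0.28 to 0.43, -0.33 to 0.38 and -0.44 to 0.35.

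The acids HA and PPA were compared directly as well. Of 10 members 0 were called between OVX-HA and OVX-PPA by edgeR or DESeq2 and 0 had an unadjusted p under 0.05, where 0% and 1.19% of all genes did so by edgeR. The difference of Oscar was 0.057 ± 0.311 (log2, OVX-HA minus OVX-PPA, -0.62 to 0.73) and that of Nfatc1 0.068 ± 0.184 (-0.33 to 0.47). Siglec15 was farthest apart at -0.81 ± 0.471 (-1.83 to 0.22), but this rested on the 2 OVX-PPA libraries, which differ: it was -0.083 without OVX-PPA replicate 2 and -1.23 without replicate 1. Intervals of this width do not show that the acids act alike.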

How the data were processed

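Poly(A) RNA of tibia was read as single 75 nt reads from a stranded library kit, per the labels' protocols. Tools named in the submitters' processing notes are STAR 2.7.8a, Bowtie2 2.2.5, CASAVA 1.8.1 and Partek, with the build mm10. Annotation, counter and use of strand: not given in the sources used here. The authors deposited estimated counts per gene symbol, not normalized, of which 20.7% differ from a whole number by more than 0.01, and a table of TMM-normalized log2 values, deposited by the authors, that was not used in the tests. All 14 columns matched a sample title. Of 55291 symbols, 53292 (96.4%) matched GENCODE M21 (mm10), which gave gene IDs, coordinates and exon lengths; no member shares exon bases with another gene. Promoters came from RefSeq (GRCm38.p6) and were searched for 5 of the 10 members. None was found for Tyrobp, Itgb3 and Spi1. No sequence from chromosome 18, which holds Nfatc1 and Siglec15, was used.

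Counts were rounded, genes filtered by group (21761 kept), scaled by TMM and fitted in 1 edgeR 4.0.16 quasi-likelihood model (R 4.3.3) of the 14 libraries, with group means as the only terms (9 residual degrees of freedom, biological coefficient of variation 25.0%). The 11 two-sided comparisons were each adjusted by Benjamini-Hochberg over all genes tested, with a threshold of 0.05. DESeq2 1.42.0 (Wald test without its own filters), another scaling, no filter and leaving out libraries were alternatives. The script was tested on simulated counts. CPM are TMM-scaled, and log2 CPM used a prior count of 2.

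All members are named with every library. Likeness names the 3 protein-coding genes of at least 2 CPM with the smallest SD of the log2 ratio to a member. Of the pathway lists, called genes and otherwise those with the smallest p are named; Car2, Acp5, Mmp9, Ctsk, Syk, Bglap, Bglap2, Col1a1 and Col1a2 were named after their values were seen. The members and lists were chosen with earlier results of these data known, so no list is independent evidence of its direction. Libraries of 11.9 to 35.4 M counts leave Siglec15 and Calcr with few counts each.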

Additional observations from a re-analysis of the deposited data

How the results depend on the processing

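Each of the 110 member differences was recomputed under 21 alternatives, which gave 2310 values. Of these, 173 turned sign, none of them past the threshold, and 8 were past the threshold, all for Oscar. The count of members called was 0 in the main edgeR fit. It was 1, Oscar, with DESeq2 in OVX-ZA against OVX-PBS, sham, OVX-HA, OVX-PPA and the mean of the other 3 ovariectomized groups, where DESeq2 called 32, 15, 29, 14 and 63 genes in all and edgeR called 0, 0, 1, 0 and 5. In the last of these comparisons it was also 1 with no filter on low counts (22 genes in all), without the 2 libraries that lack nervous system transcripts (23) and, among the 14 fits that leave out 1 library, without OVX-HA replicate 2 (27), so that leaving out libraries gave 0 to 1 members called. The cause was not tested. Under all other alternatives, and in the other 6 comparisons, the count stayed at 0.

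Groups share replicate numbers, but it is not shown that the numbers pair the samples. Over 26 pairs of libraries with the same number the correlation of deviations from group means ran from -0.55 to 0.43 with a median of 0.018, and 8 pairs were over 0.1. Over 52 pairs with different numbers it ran from -0.55 to 0.66 with a median of 0.013, and 19 were over 0.1. By median, pairs with the same number were about as alike as the others, and both sets ranged widely. Deviations within a group sum to 0, so these pairs are not independent of each other, and pairing was not tested. With the replicate number as a block 0 members were called in each of the 11 comparisons. Depth limits Siglec15 (8 to 31 counts per library) and Calcr (14 to 40 counts) most.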
